A study of Mus musculus with 4 samples.

Results

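The Hox genes of the mouse are 39 homeobox transcription factor genes in 4 clusters, and RNA-seq of poly(A) RNA gave their expression in primary chondrocytes, the cells of cartilage. All 39 were taken by symbol (Hoxa, Hoxb, Hoxc or Hoxd followed by a number) from the 25239 gene symbols of the count table, a rule that uses no measured value. The control group held 2 libraries from Tiki2 fl/fl cells, in which both alleles of Tiki2 (symbol Trabd2b, a membrane protease that inactivates Wnt proteins) carry loxP sites. The conditional knockout (cKO) group held 2 libraries from Tiki2 fl/fl cells that also carry Col2a1-Cre/ERT, a tamoxifen-inducible Cre driven by the promoter of the cartilage collagen gene Col2a1. Every culture, control included, received 4-hydroxytamoxifen, the drug that activates this Cre. The Cre was present in the cKO libraries alone, so its own effect and that of Tiki2 loss cannot be told apart, and it acts in cells that express Col2a1. The labels give neither the joint or limb the cells came from nor the age of the mice. The library names begin with iMAC, an abbreviation that was not read further here. They do not say whether replicates are separate animals, so the p-values take account of the spread among 4 samples alone, and the spread within cKO may be technical.

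Hox genes give cells of the trunk and limbs their positional identity along the body axes, and connective tissue and cartilage cells of the adult often keep the Hox pattern of the place where they arose. Within each cluster the genes lie in the order of their paralogue groups, numbered 1 to 13, and genes near the group 1 end are switched on earlier and further towards the head than genes near the group 13 end. In the limb bud the posterior genes of the HoxA and HoxD clusters pattern the skeleton from shoulder or hip to digits, with group 11 needed for the forearm and lower leg and group 13 for hand and foot. HoxB genes act mainly in the trunk, hindbrain and blood, and Hoxc10 and Hoxc11 mark the hindlimb bud rather than the forelimb bud.

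Total counts lay between 66750140 and 78873054 per library. Control replicate 1 stood apart from the other libraries in sex-linked genes: Xist, expressed from the inactive X chromosome, had 112185 counts there and 36 to 171 elsewhere, and the Y-linked gene Ddx3y had 0 counts there and 11073 to 12085 elsewhere. Sex therefore differed within the control group, so its 2 libraries are not from 1 animal, and results that rest on that library are given with and without it. Trabd2b itself had 28513 and 31314 counts in the control libraries and 22643 and 29473 in those of cKO (log2 fold change -0.38 ± 0.11 SE, edgeR adjusted p = 0.148), a count over the whole gene that does not show the floxed part alone. Markers of chondrocytes were abundant: Col2a1 had 14100 and 17300 counts-per-million (CPM) of the library total in the control libraries and 7910 and 5540 in those of cKO, and the proteoglycan gene Acan had 3240, 3490, 1800 and 1370.

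Reference sequences upstream of 4 transcription start sites are shown for Hox genes at both ends of the range of expression, so that the most abundant member can be set beside members with no counts. The set of RefSeq start sites used here (build GRCm38.p6) holds 24 for 22 of the 39 genes. Of the HoxC genes it holds Hoxc4 alone, so Hoxc10 is absent, and of the HoxB genes Hoxb1, Hoxb4 and Hoxb8 alone. Each line is the 250 bases before a start site, 5′ to 3′ on the strand of the gene, with every CG dinucleotide, the site of DNA methylation, in capitals. Hoxa10, the gene with the highest level here, has 2 start sites, an outer one (chr6:52240855-52241104, minus strand) and an inner one (chr6:52234940-52235189, minus strand). Hoxb8 (chr11:96281655-96281904, plus strand) and Hoxd12 (chr2:74674763-74675012, plus strand) had 0 counts in every library.
Hoxa10 outer start: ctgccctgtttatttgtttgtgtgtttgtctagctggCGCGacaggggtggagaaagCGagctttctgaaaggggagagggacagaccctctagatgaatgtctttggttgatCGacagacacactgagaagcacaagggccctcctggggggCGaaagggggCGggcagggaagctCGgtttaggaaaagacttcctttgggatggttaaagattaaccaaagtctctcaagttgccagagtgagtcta
Hoxa10 inner start: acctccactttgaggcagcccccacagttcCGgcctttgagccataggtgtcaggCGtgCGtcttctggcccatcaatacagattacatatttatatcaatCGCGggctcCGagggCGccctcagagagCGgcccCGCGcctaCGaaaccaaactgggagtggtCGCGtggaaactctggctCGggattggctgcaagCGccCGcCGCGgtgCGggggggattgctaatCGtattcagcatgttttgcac
Hoxb8: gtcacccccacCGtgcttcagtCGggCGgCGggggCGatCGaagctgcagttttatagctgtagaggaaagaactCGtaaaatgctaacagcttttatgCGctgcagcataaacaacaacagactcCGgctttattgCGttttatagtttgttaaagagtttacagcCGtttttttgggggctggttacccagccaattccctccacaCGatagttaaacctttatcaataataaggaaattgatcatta
Hoxd12: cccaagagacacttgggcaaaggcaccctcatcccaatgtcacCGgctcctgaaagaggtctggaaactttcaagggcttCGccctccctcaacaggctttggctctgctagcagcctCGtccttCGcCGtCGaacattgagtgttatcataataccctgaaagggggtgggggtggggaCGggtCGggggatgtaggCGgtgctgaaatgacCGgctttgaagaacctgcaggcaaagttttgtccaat

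The inner Hoxa10 window held 20 CG dinucleotides at 59.2% G+C and the outer one 7 at 51.6%. Hoxb8 had 12 at 44.4% and Hoxd12 had 10 at 55.6%. Over the 24 Hox windows the median was 12.5 CG dinucleotides and 58.6% G+C, against 6 and 52.4% over all 32851 windows of the table. Windows of several genes, such as Hoxa6, Hoxa7 and Hoxd9, overlap annotated exons, and the windows printed do not. The ratio of observed to expected CG was 0.721 in the median Hox window and 0.373 in the median of all windows. Short motifs were counted on both strands: CCAAT occurred in 14 Hox windows (58.3%, against 33.8% of all windows) and TATAAA in 4 (16.7% against 12.4%). TTTATG, a core bound by Cdx factors, occurred in 5 (20.8% against 10.8%), TGACAG, a core bound by Meis and Tgif factors, in 2 (8.33% against 15.9%), and TGATTNAT, bound by Pbx and Hox dimers, in 2 (8.33% against 2.82%). Of the windows printed, the inner Hoxa10 window and that of Hoxb8 held both TATAAA and CCAAT, Hoxd12 held CCAAT alone, Hoxb8 also held TTTATG, and the outer Hoxa10 window held none of the 5. A match of letters is a description and not a binding site.

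Detection differed by cluster and by paralogue group. Of the 39 genes, 27 had at least 10 counts in each of the 4 libraries and are called detected, 9 lay lower or were found in some libraries only, and 3 (Hoxb1, Hoxb8 and Hoxd12) had 0 counts throughout, which allows up to 3 counts in a library and covers counting error only. All 11 HoxA genes were detected, as were 8 of 9 HoxC genes, 6 of 9 HoxD genes and 2 of 10 HoxB genes. Paralogue groups 9, 10 and 11 were detected in full, with 10 of 10 genes, and so was group 4, with 4 of 4. In groups 12 and 13 together 2 of 6 were detected, Hoxa13 and Hoxc13.

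Levels were compared between genes per length, as CPM (from here on scaled by library size and the TMM factors of edgeR) per kilobase of annotated exons. On that scale Hoxa10 (chr6:52231197-52240854) lay at 27.4 and 30.1 in control replicates 1 and 2 and at 36.5 and 35.6 in cKO replicates 1 and 2. Hoxc10 (chr15:102966796-102971893) lay at 28.7, 28.6, 30.1 and 31.2 in the same order, and Hoxa11 (chr6:52242106-52245810) at 22.0, 21.1, 21.0 and 22.0. These are the 3 highest Hox genes in every library: Hoxa10 and Hoxc10 overlapped in range, with Hoxa10 above in 3 of 4 libraries, and both lay above Hoxa11 in all 4. Among the 15192 tested genes with an annotated length, whose median level was 4.21, Hoxa10 stood in the top 8.31%, Hoxc10 in the top 9.31% and Hoxa11 in the top 13.3%.

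**Figure D1:**
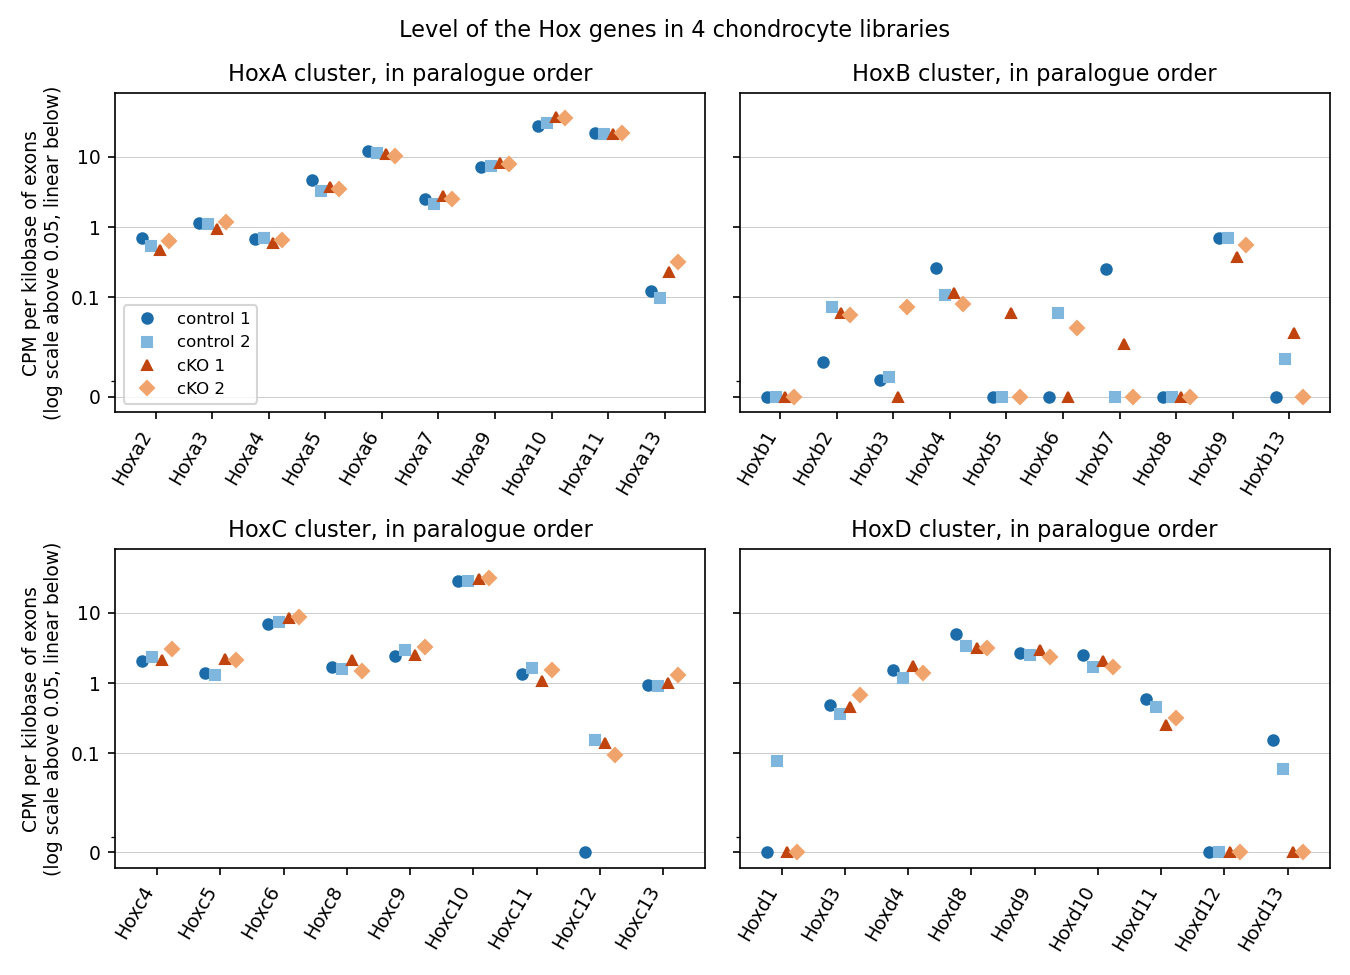
Level of the Hox genes in CPM per kilobase of exons (log axis above 0.05, linear below), 1 panel per cluster and paralogue groups in order, each point 1 library (blue control, orange cKO). Hoxa10, Hoxa11 and Hoxc10 lie between 21.0 and 36.5, while no HoxB gene reaches 1.

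Below the leading genes the levels fell off in steps and then ran together. Hoxa6 averaged 11.2 ± 0.702 (SD over the 4 libraries), Hoxc6 7.86 ± 0.894 and Hoxa9 7.64 ± 0.464, and Hoxa11, Hoxa6 and Hoxc6 did not overlap from one to the next. The ranges of Hoxc6 and Hoxa9 overlapped, and both lay above Hoxa5 (3.78 ± 0.585) in every library. From Hoxa5 and Hoxd8 (3.66) through Hoxc9 (2.77), Hoxd9 (2.62), Hoxa7 (2.50), Hoxc4 (2.38) and Hoxd10 (1.99) to Hoxc5 (1.74) and Hoxc8 (1.72), each gene overlapped its neighbour in the order. Next came Hoxd4 (1.47), Hoxc11 (1.39), Hoxa3 (1.10) and Hoxc13 (1.04), and below a level of 1 Hoxa4 (0.660), Hoxa2 (0.594), Hoxb9 (0.581), Hoxd3 (0.497), Hoxd11 (0.400), Hoxa13 (0.192) and Hoxb4 (0.142). The middle of this order depends on which length is used. By the longest coding transcript in place of merged exons, an alternative chosen after seeing the data, Hoxa10, Hoxc10 and Hoxa11 kept ranks 1, 2 and 3 but Hoxa9 came to 13.2, and it and Hoxc6 then lay above Hoxa6. The level of 6 genes (Hoxa3, Hoxa9, Hoxb2, Hoxc6, Hoxc8, Hoxd11) was over 1.5 times as high on that scale, and Hoxd11 reached 1.51. Hoxa6 has the shortest annotated exons of the 39 genes, 874 bases.

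In the HoxB cluster the group 9 and group 4 genes alone were detected. Hoxb9 (chr11:96271457-96276595) had 117 and 135 counts in the control libraries and 75 and 117 in those of cKO, and Hoxb4 had 44, 21, 23 and 17. Of the other HoxB genes, Hoxb2 had 5 to 19 counts, Hoxb3 0 to 25, Hoxb7 26 counts in control replicate 1 and 0 to 4 elsewhere, Hoxb5 13 in cKO replicate 1 and 0 elsewhere, Hoxb6 0 to 9 and Hoxb13 0 to 7. Beside these the HoxA, HoxC and HoxD genes of the same paralogue groups were detected, apart from Hoxd13. Hoxa9, for example, had 2597 to 3588 counts and Hoxd9 369 to 483. Hoxb5, Hoxb6, Hoxb7 and Hoxb13 were each at 0 in at least 1 library of a group and above 0 in another, so their presence in single libraries is not called a difference. The remaining low genes were Hoxc12, with 0, 12, 11 and 8 counts, Hoxd1, with 11 counts in control replicate 2 alone, and Hoxd13, described with the genotypes.

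Summed over genes, HoxA made up most of the Hox level and HoxC most of the remainder. HoxA held 57.2% and 57.9% of the summed level (CPM per kilobase) in the control libraries and 58.6% and 57.5% in those of cKO, and HoxC held 32.7%, 34.3%, 33.7% and 35.4%. HoxD held 9.27%, 7.11%, 7.20% and 6.49%, with control replicate 1 the highest, and HoxB between 0.465% and 0.898%. The 4 libraries thus had nearly the same balance of clusters, and the shares of HoxA overlapped between genotypes. The HoxB share was lower in both cKO libraries (0.465% and 0.546%) than in both controls (0.898% and 0.715%), from between 138 and 195 counts a library in all.

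By paralogue group, group 10 alone held 42.1% and 44.3% of the summed level in the control libraries and 46.6% and 46.0% in those of cKO. Group 11 followed with 17.3%, 17.0%, 15.2% and 16.0%, then group 6 with a mean of 13.4% and group 9 with 9.53%. Groups 9 to 11 together held 68.7% to 71.4%, groups 5 to 8 21.5% to 24.7%, groups 1 to 4 5.04% to 5.96% and groups 12 and 13 0.875% to 1.16%. The mean share dropped from 16.4% in group 11 to 0.0677% in group 12 and was 0.907% in group 13. Hoxa13, a gene of hand and foot, lay 112 to 311 times below Hoxa10 in level. Within group 10 the HoxD gene was the lowest, with Hoxc10 11.6 to 18.3 times the level of Hoxd10.

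**Figure D2:**
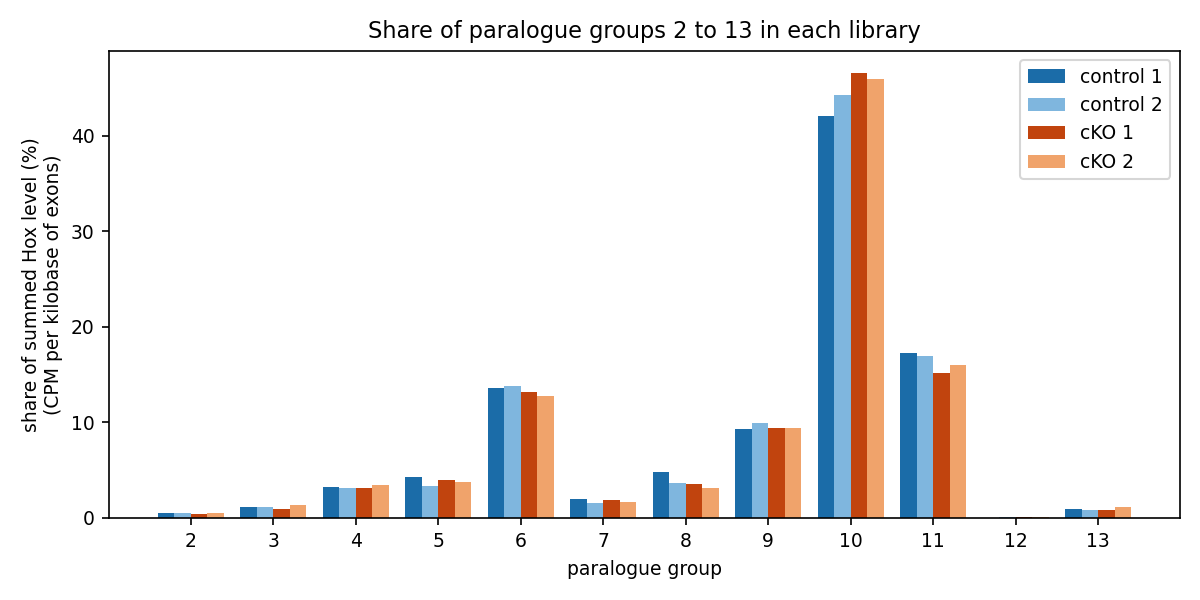
Share of the summed Hox level (percent, CPM per kilobase of exons) held by paralogue groups 2 to 13, 1 bar per library. Group 10 holds 42.1% to 46.6% and group 12 at most 0.113% in every library.

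Several of the genes share exon bases with a neighbour, and no source used here gives the counting tool or its use of strand. In the annotation 35.0% of the exon bases of Hoxa11 lie opposite Hoxa11os, an antisense RNA with 621 to 1119 counts, so reads of the pair cannot be told apart without strand. Hoxd3 and Hoxd4 share 62.3% and 52.3% of their exon bases with each other or with the predicted gene Gm28230 on the same strand, and 25.4% of Hoxa3 and 52.9% of Hoxb3 lie opposite antisense genes. The annotated Hoxc5 gene (chr15:102967443-103017429) starts inside Hoxc10, with 5.37% of its exon bases in common with it. The split of reads within these pairs is uncertain.

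No Hox gene passed the edgeR test for a difference between genotypes, and Hoxa10 came nearest to it. By the edgeR quasi-likelihood test, with Benjamini-Hochberg adjustment over 15522 genes at a threshold of 0.05, 0 of the 30 Hox genes that passed the filter on low counts were called higher in cKO and 0 lower. Over all genes 0.393% (61) were called higher and 0.908% (141) lower, and with library sizes alone in the scaling 116 and 123. By limma-voom 0 of the 30 were called in either direction (5 at an unadjusted p under 0.05), where 0.683% of all genes were called higher and 1.46% lower, and by DESeq2 2 were called higher and 0 lower, where 3.53% of all genes were called higher and 4.34% lower. At an unadjusted edgeR p under 0.05, 3 were higher (Hoxa10, Hoxc5 and Hoxc6, against 8.36% of all genes) and 2 lower (Hoxd11 and Hoxd13, against 8.88%). Of these, Hoxd13 passed the filter on low counts through the control libraries alone, so its test carries no weight. The log2 fold change was above 0 for 16 genes and below 0 for 14, with a median of 0.07 beside 0.002 over all genes tested. Of the 30 genes, 23 lay within 0.5 of 0 in log2 fold change. A missing call does not show that levels were equal, and the 95% intervals give what these 4 libraries leave possible.

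Hoxa10 belongs to the paralogue group that patterns the thigh and also acts in the uterus, and had the lowest edgeR p of the Hox genes. It had 89.7 and 98.4 CPM in the control libraries and 119 and 116 in those of cKO, or 94.0 ± 6.11 and 118 ± 2.08 (mean ± SD, n = 2 each), and the groups did not overlap. The log2 fold change was 0.33 ± 0.07 SE (95% interval 0.17 to 0.48, edgeR adjusted p = 0.0785). The call depended on the fit: scaled by library size alone, the log2 fold change was 0.39 and the edgeR adjusted p 0.0493, a fit that called 0.747% of all genes higher. By DESeq2 the adjusted p was 0.00269 and by limma-voom 0.0626. Without control replicate 1 the log2 fold change was 0.26 (edgeR adjusted p = 0.279), and over the 4 fits that leave out 1 library it ran from 0.26 to 0.39 with adjusted p from 0.103 to 0.279.

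The summed Hox expression was higher in both cKO libraries, mostly through Hoxa10. The sum over all 39 genes was 351 and 348 CPM in the control libraries and 383 and 387 in those of cKO, and without Hoxa10 it was 261, 250, 264 and 271. The mean of the sum was thus 35.6 CPM higher in cKO, 23.8 CPM of it from Hoxa10. Scaled by library size alone, as CPM of the library total, the sums were 343.8, 339.6, 388.5 and 399.2. The neighbouring gene Hoxa11 had 50.4 and 48.2 CPM in the control libraries and 48.1 and 50.3 in those of cKO (log2 fold change 0.00 ± 0.07 SE, 95% interval -0.17 to 0.17, edgeR adjusted p = 0.994). The ratio of the level of Hoxa10 to that of Hoxa11 was 1.24 and 1.43 in the control libraries and 1.73 and 1.62 in those of cKO, with no overlap.

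**Figure D3:**
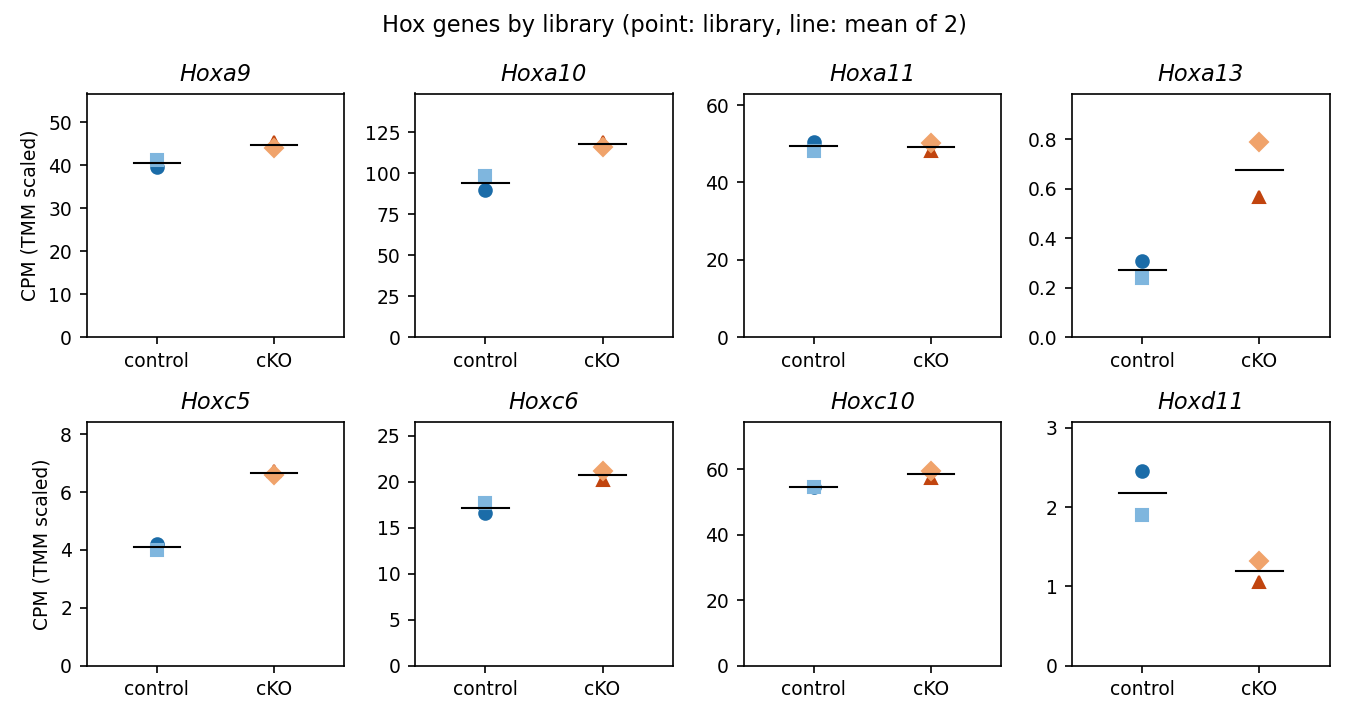
CPM (TMM scaled, linear axes from 0) of 8 Hox genes in the 2 control and 2 cKO libraries; points are libraries (circle control 1, square control 2, triangle cKO 1, diamond cKO 2) and lines are means of 2. Hoxa10, Hoxc5, Hoxc6 and Hoxa13 lie higher in both cKO libraries and Hoxd11 lower, while Hoxa11 overlaps; none of the 8 passed the edgeR threshold of 0.05 after adjustment.

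The other abundant genes of groups 9 and 10 had small differences. Hoxa9 had 39.7 and 41.3 CPM in the control libraries and 45.4 and 44.1 in those of cKO (log2 fold change 0.14, 95% interval -0.03 to 0.32, edgeR adjusted p = 0.382). Hoxc10 had 54.7, 54.6, 57.5 and 59.6 CPM (0.10, 95% interval -0.05 to 0.25, edgeR adjusted p = 0.469). Neither pair of groups overlapped, and both intervals leave out a difference of 0.5 on the log2 scale. Among the HoxA genes of groups 2 to 6, Hoxa2, Hoxa3, Hoxa4, Hoxa5 and Hoxa6 had log2 fold changes from -0.15 (Hoxa2) to -0.07 (Hoxa3), and Hoxa7 had 0.19, each with an interval that holds 0. The sign for Hoxa2, Hoxa3 and Hoxa5 turned when 1 library was left out.

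In all, 8 of the 30 tested genes were higher in both cKO libraries than in both controls (Hoxa7, Hoxa9, Hoxa10, Hoxa13, Hoxc5, Hoxc6, Hoxc10 and Hoxc13), where 24.9% of all genes were, and 6 were lower in both (Hoxa4, Hoxa6, Hoxb9, Hoxd8, Hoxd11 and Hoxd13), where again 24.9% of all genes were. Hoxd13 was kept by the filter through the control libraries alone, so its place among the lower genes carries no weight. Scaled by library size alone, 8 were higher and 3 lower, against 35.0% and 16.7% of all genes. The members' counts are near, or below, what all genes show.

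In HoxC, 8 of the 9 tested genes had a log2 fold change above 0, with a median of 0.23. Over the tested Hox genes of all clusters 16 of 30 lay above 0, and over all tested genes 50.4%. The summed HoxC expression was 96.5 and 99.4 CPM in the control libraries and 107 and 114 in those of cKO. Hoxc5 had 4.22 and 3.99 CPM in the control libraries and 6.74 and 6.60 in those of cKO, with no overlap (log2 fold change 0.70 ± 0.17 SE, 95% interval 0.29 to 1.11, edgeR adjusted p = 0.114). DESeq2 called Hoxc5 as well (adjusted p = 0.0458), and without control replicate 1 its log2 fold change was 0.74 (edgeR adjusted p = 0.269). Hoxc6, the highest gene of groups 4 to 8 in this cluster, had 16.6 and 17.7 CPM in the control libraries and 20.2 and 21.2 in those of cKO (0.27 ± 0.09 SE, 95% interval 0.05 to 0.49, edgeR adjusted p = 0.199). The remaining HoxC genes had log2 fold changes from -0.20 (Hoxc11) to 0.55 (Hoxc12, from at most 12 counts a library), each with an interval that holds 0. Of the 9, Hoxc4, Hoxc8, Hoxc9, Hoxc11 and Hoxc12 turned in sign when 1 library was left out.

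Values of the HoxD cluster and of group 13 were spread in both directions. Hoxd11, which acts with Hoxa11 in the forearm, had 161 and 143 counts in the control libraries and 82 and 107 in those of cKO (2.46, 1.90, 1.06 and 1.32 CPM). These groups did not overlap either, with a log2 fold change of -0.87 ± 0.34 SE (95% interval -1.71 to -0.04, edgeR adjusted p = 0.269). Without control replicate 1 it was -0.67 (edgeR adjusted p = 0.575). Hoxd13, a digit gene, had 25 and 11 counts in the controls and 0 in both cKO libraries. The observed control mean was 6.99 times a floor of 3 counts per cKO library, or 3.86 times without control replicate 1. These folds leave out counting error and spread in the controls, so they are not lower bounds. Hoxa13 was higher in both cKO libraries, with 20 and 18 counts in the control libraries and 44 and 64 in those of cKO (0.306, 0.239, 0.567 and 0.788 CPM), a log2 fold change of 1.31 ± 0.64 SE (95% interval -0.24 to 2.86, edgeR adjusted p = 0.368). Hoxd8 had 13.7 CPM in control replicate 1 and 8.59 to 9.16 in the other libraries, so its log2 fold change of -0.40 was -0.08 without that library. The other HoxD genes lay between -0.13 (Hoxd10) and 0.44 (Hoxd3), with Hoxd9 at 0.03 and Hoxd4 at 0.21, and their intervals hold 0. In HoxB, Hoxb9 had 1.79 and 1.79 CPM in the control libraries and 0.967 and 1.44 in those of cKO (-0.57, 95% interval -1.46 to 0.32), and the sparse genes Hoxb4 (-0.90, -2.79 to 0.99) and Hoxb2 (0.28, -1.99 to 2.55) had wide intervals.

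**Figure D4:**
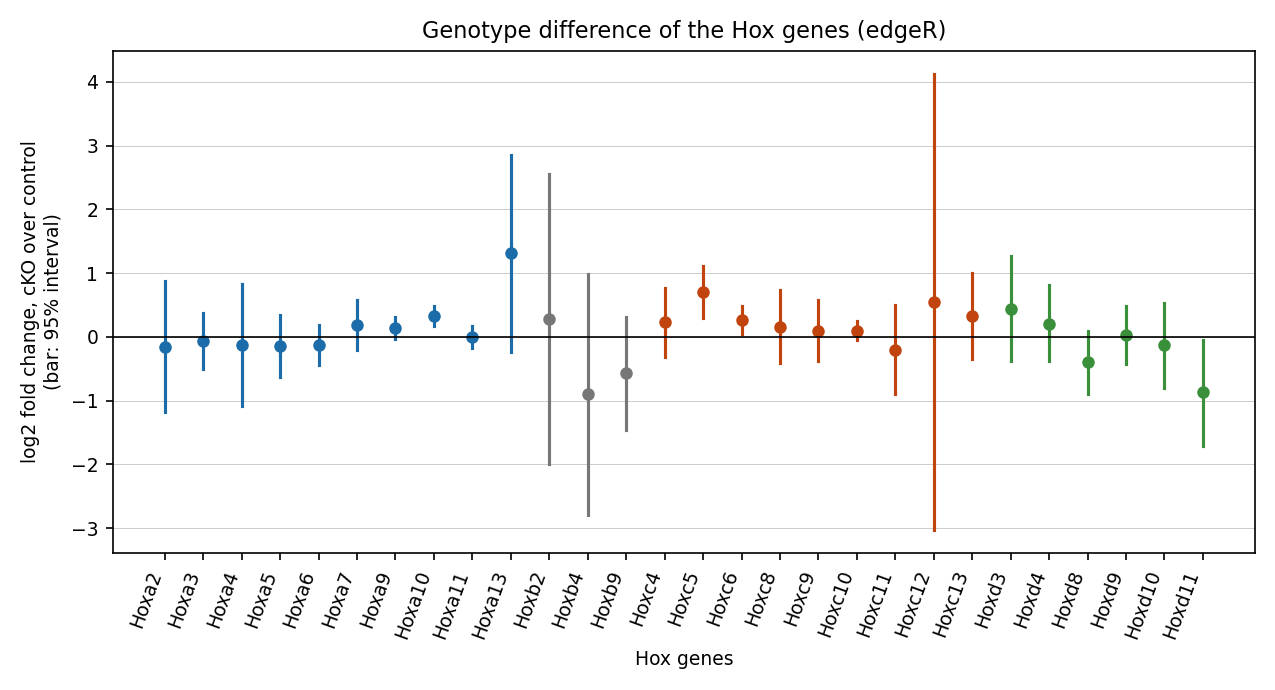
log2 fold change of cKO over control with its 95% interval (edgeR) for Hox genes, Hoxd13 left out because its cKO counts are 0; colours mark clusters (blue HoxA, grey HoxB, orange HoxC, green HoxD). The interval leaves out 0 for Hoxa10, Hoxc5, Hoxc6 and Hoxd11 before adjustment, and those of Hoxa13, Hoxb2, Hoxb4 and Hoxc12 are wide.

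Replicates of a genotype differed more among all tested Hox genes than among the abundant ones. The median absolute log2 difference between the 2 replicates, over 29 Hox genes, was 0.21 in the controls and 0.29 in cKO, against 0.13 over all genes in each group. Among the 18 Hox genes with a mean count of at least 200 it was 0.11 and 0.12, against 0.10 over all such genes. The largest replicate differences among these were 0.58 for Hoxd8 in the controls and 0.53 for Hoxc8 in cKO. The median absolute log2 fold change between genotypes, over the 30 tested Hox genes, was 0.21, against 0.15 over all tested genes.

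The libraries differed between genotypes in cell type markers at the same time. Per library total, the summed chondrocyte markers were 21100 and 24900 CPM in the control libraries and 12200 and 8930 in those of cKO, with 8 of 10 genes called lower (1 without either control library; 9 by DESeq2) and none at 0. At an unadjusted edgeR p under 0.05, 9 were lower and 1 higher. Those of stromal fibroblasts were 7900, 7420, 9280 and 10000, with 3 of 10 called higher (Col1a1, Col3a1 and Cd34; 0 without either control library) and none at 0. At an unadjusted edgeR p under 0.05, 7 were higher and 1 lower, and DESeq2 called 6 higher and 1, Dcn, lower. Over all genes 8.36% were higher and 8.88% lower at that unadjusted p. The shares of all genes called were 0.393% higher and 0.908% lower by edgeR and 3.53% and 4.34% by DESeq2. In bulk RNA fewer cells of a type and less RNA per cell cannot be told apart. The part of the marker shifts in the Hox values was not tested. edgeR called no gene in the other lists, where 5 adipocyte markers were higher and 2 Schwann cell, 1 osteoblast and 1 osteoclast marker lower at an unadjusted p under 0.05. DESeq2 called 4 adipocyte, 1 Schwann cell and 1 osteoclast marker and limma-voom 1 Schwann cell marker. Adipocyte markers summed to 202 and 204 in the controls and 306 and 500 in cKO (Lep at 0), skeletal muscle to 5.65, 38.8, 84.0 and 15.6 (Pax7 at 0), and Schwann cell to 164, 194, 117 and 87.7 (Sox10 at 0). Macrophage markers summed to 12.5 to 18.1, endothelial to 2.76 to 4.29 (Emcn at 0), erythroid to 0.170 to 0.621 (all 4 globin genes of the list at 0), osteoblast to 56.8 to 58.6 and osteoclast to 393 to 470 (Dcstamp at 0).

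Genes that mark the limb type were read beside the Hox pattern. Pitx1, which specifies the hindlimb, had 5586 and 7054 counts in the control libraries and 6858 and 6742 in those of cKO, and Tbx4, its target in the hindlimb, had 2355, 2636, 3314 and 3858. Tbx5, the forelimb counterpart of Tbx4, had 555, 912, 1195 and 924 counts. In level per kilobase Pitx1 exceeded Tbx5 10.1 to 17.7 times and Tbx4 exceeded it 3.81 to 5.83 times, in every library. Neither Pitx1 (log2 fold change -0.06, edgeR adjusted p = 0.722) nor Tbx5 (0.38, adjusted p = 0.45) was called.

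**Figure D5:**
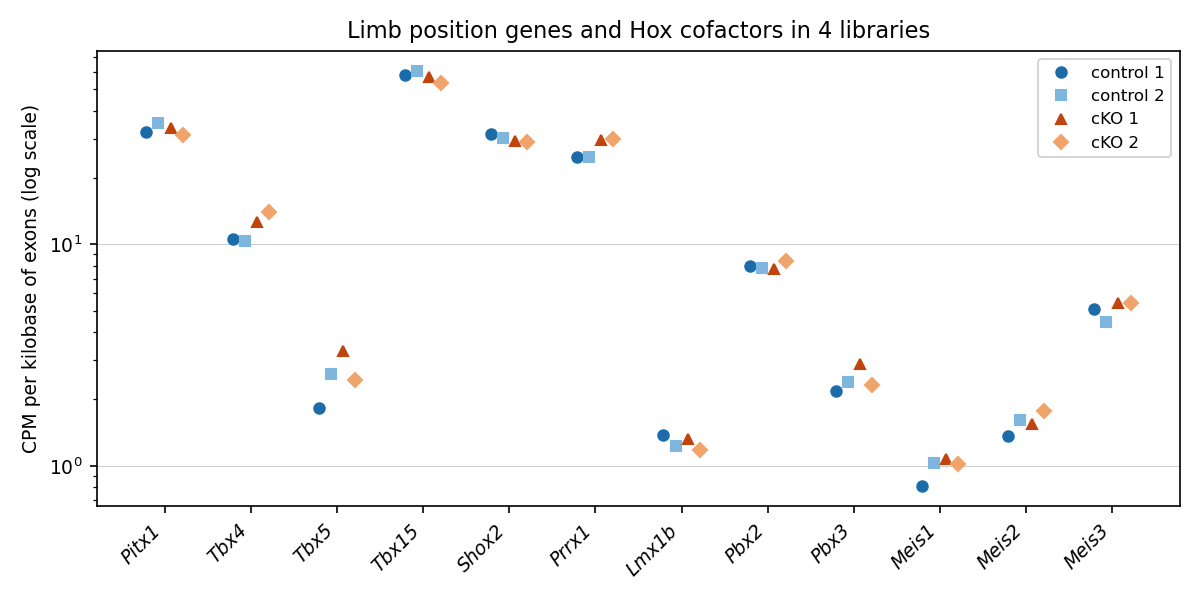
Level in CPM per kilobase of exons (log axis) of limb position genes and of Pbx and Meis cofactors, each point 1 library (blue control, orange cKO). Pitx1 lies at 31.2 to 35.2 and Tbx5 at 1.82 to 3.30, and the libraries differ little from each other beside the differences between genes.

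Of the 31 listed genes of limb position and limb type, 27 were tested and none was called by edgeR (7 higher and 0 lower at an unadjusted p under 0.05, against 8.36% and 8.88% of all genes), with a median log2 fold change of 0.23 over the 27. The 4 of lowest p all encode transcription factors of limb and body wall mesenchyme. They were Tbx18 (0.46, edgeR adjusted p = 0.0527), Prrx2 (0.54, 0.0723), Prrx1 (0.26, 0.0855) and Tbx4 (0.35, 0.114), each higher in both cKO libraries. DESeq2 called all 4 of these, and limma-voom called 1, Tbx18, as did edgeR with library sizes alone and edgeR on counts divided by 4. Sall3 and Sall4 were at 0 in all libraries.

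Hox proteins bind DNA with TALE homeodomain partners, the Pbx, Meis and Pknox proteins. All 11 listed TALE genes were tested and none was called by edgeR or limma-voom. DESeq2 called 1 higher, where 3.53% of all genes were called higher. The unadjusted edgeR p was under 0.05 for 2 higher and 1 lower, against 8.36% and 8.88% of all genes. Among these were Pknox2 (log2 fold change 0.50, edgeR adjusted p = 0.198) and Tgif1 (-0.31, 0.227). Pbx2 had a mean level of 7.97 CPM per kilobase. Among the Meis genes, Meis3 (5.11) lay above Meis2 (1.57) and Meis1 (0.987).

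Trithorax and Polycomb proteins hold Hox clusters in their active and silent states. edgeR and limma-voom called none of the 27 tested chromatin regulators. DESeq2, which called 4.34% of all genes lower, and edgeR on counts divided by 4 each called 1 (Suz12, lower). The unadjusted edgeR p was under 0.05 for 0 higher and 1 lower, against 8.36% and 8.88% of all genes. The median log2 fold change of the 27 was -0.01. Suz12, a core subunit of Polycomb complex PRC2, had the lowest p, with 5642 and 6797 counts in the control libraries and 5604 and 5717 in those of cKO (-0.31, edgeR adjusted p = 0.071). In counts the groups overlap, and in CPM per kilobase they do not (17.4, 18.2, 14.6 and 14.2).

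Other transcripts of the clusters were sparse, apart from antisense RNA of the posterior HoxA genes. Of 21 listed, 19 were in the table, 8 were tested and none was called by edgeR, limma-voom or DESeq2. The unadjusted edgeR p was under 0.05 for 1 higher and 0 lower, against 8.36% and 8.88% of all genes. Hoxa11os had 621 and 789 counts in the control libraries and 925 and 1119 in those of cKO (0.36, edgeR adjusted p = 0.239), and Haglr, opposite the HoxD genes, had 29, 62, 18 and 18 (-1.48, adjusted p = 0.357). The HoxC antisense RNA Hotair had 77, 46, 62 and 81 counts (0.01), and Evx1, Evx1os, Hoxb3os, Hoxb5os and Mir196a-2 were at 0. Protein-coding genes outside the clusters were also read: 16 had counts listed, 13 were tested, and edgeR and limma-voom called 1, Gpr84, lower. Of all genes, edgeR called 0.908% lower and limma-voom 1.46%. DESeq2 called 2 lower, Gpr84 and Snx10 (-0.45, edgeR adjusted p = 0.0853), as did edgeR without cKO replicate 1. Gpr84, a fatty acid receptor gene on chromosome 15, had 650 and 713 counts in the control libraries and 136 and 104 in those of cKO (-2.68, edgeR adjusted p = 0.0264; 0.11 without control replicate 1 and 0.0812 without control replicate 2). It lies 271383 bases from the nearest Hox gene, and the 13 had a median log2 fold change of -0.08.

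Retinoic acid and Cdx factors switch on Hox clusters in the embryo. Of the 18 listed genes 12 were tested and none was called by edgeR (3 higher and 1 lower at an unadjusted p under 0.05, against 8.36% and 8.88% of all genes), with a median log2 fold change of 0.38. The lowest p were those of the receptor gene Rxra (0.41, edgeR adjusted p = 0.0638), the ligand gene Gdf11 (0.57, 0.0642) and the retinaldehyde dehydrogenases Aldh1a3 (1.52, 0.159) and Aldh1a1 (-0.42, 0.178). DESeq2 called 3 of these 4, all but Aldh1a3. Rxra was also called by limma-voom and by edgeR with library sizes alone, and both Rxra and Gdf11 by edgeR on counts divided by 4. Cdx2, Cdx4 and Cyp26a1 were at 0 in every library.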

How the data were processed

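Poly(A) RNA of 4 libraries of primary mouse chondrocytes was sequenced, and groups and replicate numbers follow the labels. The authors deposited raw counts per gene symbol, not scaled to library size. Tools listed without a role in the submitters' processing notes are HISAT2 2.2.1, StringTie 2.1.7, FastQC 0.11.9 and Trim Galore 0.6.7, with build mm10; the counting tool, strand setting and annotation were not given in the sources used here. GENCODE M21 (mm10) supplied exon lengths and positions for 24366 of the 25239 symbols.

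Genes were kept by filterByExpr (minimum count 10) in edgeR 4.0.16 (R 4.3.3), which left 15522. They were tested for genotype by the edgeR quasi-likelihood test with TMM factors, and p-values were adjusted by Benjamini-Hochberg over all of them. CPM use TMM-scaled library sizes, and marker sums use library sizes. limma 3.58.1 (voom) and DESeq2 1.42.0 were alternatives, and the edgeR script was tested on simulated data. The simulation had less spread than edgeR estimated here and larger changes than most Hox genes showed. It therefore does not show how often differences of the size seen here would be called. All Hox genes could be named, and of each list those called plus those of lowest p up to 4. Levels of Pbx and Meis genes beyond this rule were added after their values were seen. Some members of the Hox genes and of the lists are not reported by name here. Hox members and lists were chosen with earlier results of these data known.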

Additional observations from a re-analysis of the deposited data

How the results depend on the processing

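No Hox gene was called lower under any alternative run, and Hox genes called higher were 1 with library sizes alone, 2 by DESeq2 and 0 by edgeR without a filter, limma-voom, counts divided by 4 and each fit without 1 library. Over all genes, 61 were called higher and 141 lower. The counts were 116 higher with library sizes alone, 491 and 604 lower by DESeq2, 106 and 227 by limma-voom and 128 and 243 with counts divided by 4. Without 1 library they ran from 1 to 312 higher and from 4 to 470 lower, the fewest without control replicate 1 and the most without cKO replicate 1. With the replicate block they were 3 and 20, with 0 Hox genes called. The labels state no pairing by replicate number. Deviations of same-numbered libraries correlated at -0.12, a value that also carries the sex difference within the controls. It does not settle whether same-numbered libraries were prepared together. A crossed replicate block, chosen after seeing the data, called 223 higher and 341 lower, with 1 Hox gene higher. The median log2 fold change of the Hox genes (0.07) was 0.13 with library sizes alone and ran from -0.03 to 0.08 without 1 library. Of the Hox genes reported by name, 11 changed sign without 1 library. Their ranges were -0.32 to 1.38 (Hoxb2), -0.40 to 6.19 (Hoxc12), -0.48 to 0.04 (Hoxc11), -0.09 to 0.26 (Hoxc9), -0.13 to 0.40 (Hoxc8), -0.06 to 0.46 (Hoxc4), -0.39 to 0.17 (Hoxd10), -0.12 to 0.17 (Hoxd9), -0.38 to 0.04 (Hoxa2), -0.25 to 0.10 (Hoxa3) and -0.36 to 0.12 (Hoxa5). The cause was not tested. Values of the low genes rest on few counts, and Hoxd13 had no DESeq2 adjusted p.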
